A study of Mus musculus with 15 samples.

Results

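The oligoadenylate synthetase genes of the mouse were followed in Ba/F3-beta cells whose Stat5 was lowered with siRNA. The 8 genes listed were Oas1a, Oas1b, Oas1c, Oas1g, Oas2, Oas3, Oasl1 and Oasl2, and all probe sets annotated to them on 3 array designs were taken. Of the 8 genes, 7 had a probe set, 1 each, and 6 had a signal at or above the floor of 119.9 in at least 1 condition. The arrays named 15964 genes in all, 8683 of which reached the floor, among 36701 non-control probe sets. Oas1a had no named probe set and was not analysed here.

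Oligoadenylate synthetases bind double-stranded RNA and join ATP into short chains of adenylate linked 2′ to 5′, called 2-5A. These chains serve as a signal in the defence of cells against viruses. The genes are known as interferon-stimulated genes: interferon receptors activate a factor that contains Stat2 and Irf9, which binds the interferon-stimulated response element (ISRE) in promoters.

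Ba/F3-beta is an established mouse pro-B cell line that needs the cytokine IL-3 to grow, and IL-3 activates the transcription factors Stat5a and Stat5b. The 5 conditions were no IL-3, IL-3 for 30 min and IL-3 for 2 h, the IL-3 times each with siRNAs against both Stat5 genes or with a scrambled control siRNA, and the cells without IL-3 with the control siRNA. The study was designed to find IL-3 response genes that depend on Stat5. All cells had been transfected with siRNA. Neither Stat5 siRNA cells kept off IL-3 nor untransfected cells were among those analysed here. Each condition was measured on 1 array of each of the Affymetrix designs U74A, U74B and U74C, 15 arrays in all, so no difference below has a replicate check and none was tested. The spread given beside a ratio is the SD of a log2 ratio estimated from pairs of probe sets for the same gene on that design, and it holds no variation between cultures.

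Arrays of the same design correlated at 0.940 to 0.987 in log2 signal raised to the floor, and at 0.902 to 0.964 without the floor. Stat5a and Stat5b, the genes the siRNAs were aimed at, were lower in Stat5 siRNA cells, with log2 ratios of -1.03 and -1.59 at 30 min and of -0.99 and -0.49 at 2 h. Both probe sets of Stat5a are of cross-hybridising kinds, and the control signal of Stat5b at 2 h was itself lower than without IL-3, at a log2 ratio of -1.60. All 3 genes for the IL-3 receptor reached the floor, with summed signals of 7190 to 11508. Of 11 pro-B and B lineage markers with a probe set only Cd79b reached it, while Pax5, Ebf1, Rag1, Igll1 and Cd79a did not, and the list's sum lay between 325.2 and 491.0. None of 7 myeloid markers and none of 5 T and NK cell markers with a probe set reached it, while 2 of 8 fibroblast and epithelial markers did (Col1a2 and Epcam). Of 5 plasmacytoid dendritic cell markers 2 did, Bst2 and Tcf4, and Bst2 is itself interferon-stimulated. The sum of that list was 1483 in Stat5 siRNA cells and 754 in control siRNA cells at 30 min, and 1312 and 716 at 2 h, while Siglech did not pass 7.81. Most of the difference in that sum was Bst2. Its signals were 980.5 in Stat5 siRNA cells and 433.5 in control siRNA cells at 30 min, and 1068.5 and 423.1 at 2 h. Tcf4 had log2 ratios of 0.50 at 30 min and -0.07 at 2 h. The part of other cells in the results was not tested, and in bulk RNA more cells expressing a gene and more RNA per cell cannot be told apart.

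The genes lie on chromosome 5 in a pair of groups, in the GRCm38.p6 assembly of RefSeq. Oasl2 and Oasl1 are neighbours within 41 kb. The other group covers 191.3 kb and holds 10 genes of the family, Oas2, Oas3, Oas1e, Oas1c, Oas1b, Oas1f, Oas1h, Oas1g, Oas1a and Oas1d in that order, of which 6 are listed here. RefSeq promoter windows, from 250 bases before to 50 after an annotated start, were found for 6 of the 8 genes, all but Oas1b and Oas2. Each window was searched on both strands for the ISRE core GAAANNGAA (TTCNNTTTC on the other strand) and for TTCNNNGAA, the gamma-activated site that STAT dimers bind. These motifs share the letters GAA and can overlap. The windows of 4 genes below are shown because these genes were measured, and differ both in their response and in the motif: Oas3 at chr5:120777610-120777909 (minus strand), Oas1c at chr5:120812465-120812764 (minus strand), Oasl1 at chr5:114922990-114923289 (plus strand) and Oasl2 at chr5:114896684-114896983 (plus strand). Each is written 5′ to 3′ along the gene, and capitals mark the ISRE core matches.
Oas3: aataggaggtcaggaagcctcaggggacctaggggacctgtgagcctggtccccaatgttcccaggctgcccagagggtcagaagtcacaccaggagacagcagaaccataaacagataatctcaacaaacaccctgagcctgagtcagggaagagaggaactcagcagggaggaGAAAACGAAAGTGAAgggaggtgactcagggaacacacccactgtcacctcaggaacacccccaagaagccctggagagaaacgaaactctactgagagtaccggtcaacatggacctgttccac
Oas1c: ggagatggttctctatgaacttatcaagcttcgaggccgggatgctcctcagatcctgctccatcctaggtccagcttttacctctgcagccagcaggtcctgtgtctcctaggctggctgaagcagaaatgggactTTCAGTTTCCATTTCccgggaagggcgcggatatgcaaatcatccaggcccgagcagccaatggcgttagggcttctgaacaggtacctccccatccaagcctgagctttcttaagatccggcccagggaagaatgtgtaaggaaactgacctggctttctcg
Oasl1: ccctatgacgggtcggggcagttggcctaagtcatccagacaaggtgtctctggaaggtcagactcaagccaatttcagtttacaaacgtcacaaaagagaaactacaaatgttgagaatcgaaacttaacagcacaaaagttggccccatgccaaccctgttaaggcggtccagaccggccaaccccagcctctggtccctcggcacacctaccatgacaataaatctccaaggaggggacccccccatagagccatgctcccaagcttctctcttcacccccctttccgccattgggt
Oasl2: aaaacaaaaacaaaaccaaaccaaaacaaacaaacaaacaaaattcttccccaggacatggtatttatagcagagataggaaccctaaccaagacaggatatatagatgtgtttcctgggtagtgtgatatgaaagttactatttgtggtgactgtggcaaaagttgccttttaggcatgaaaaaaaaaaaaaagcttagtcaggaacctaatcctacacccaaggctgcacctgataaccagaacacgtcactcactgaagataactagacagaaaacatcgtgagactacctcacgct

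The Oas3 and Oas1c windows each held 2 overlapping matches that form a run of 15 bases, and the windows of Oasl1 and Oasl2 held none. In Oas3 the run is GAAAACGAAAGTGAA, which begins 75 bases before the start. In Oas1c the run lies on the opposite strand, 113 to 99 bases before the start, and reads GAAATGGAAACTGAA there. The windows of Oas1a and Oas1g hold the same 15 letters on the gene's own strand, beginning 20 and 18 bases before their starts. Thus 4 of the 6 windows held the ISRE core, each with 2 matches, beside 8.56% of 32851 RefSeq windows of this length with at least 1 match and 0.624% with 2 or more. The gamma-activated site was found only in Oas1a, as TTCAAAGAA beginning 98 bases before the start, and 8.30% of all windows hold it. A window without a match says only that these letters are not in it.

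In Stat5 siRNA cells 3 of the synthetase genes, Oasl1, Oasl2 and Oas2, gave 2-fold or higher signals than in control siRNA cells at both times of IL-3. Oas3 and Oas1c were higher by less than 2-fold at both times, and Oas1b was lower at 30 min. At 30 min 3 of 6 measured synthetase genes were 2-fold or more higher and 0 lower, beside 0.308% of 8124 genes higher and 0.382% lower. At 2 h the count was 3 of 5 higher and 0 lower, beside 0.504% of 8132 genes higher and 0.43% lower. The median log2 ratio of the measured synthetase genes was 0.96 at 30 min and 1.34 at 2 h, beside 0.0008 and 0.0041 over all genes. Oasl2 at both times and Oas1c at 2 h were measured only through the Stat5 siRNA array and could only come out higher, as Oas1b at 30 min, measured only through the control array, could only come out lower. Oas1b is not in the median at 2 h, as its 80.7 in Stat5 siRNA cells and 118.0 in control siRNA cells were both under the floor. Settings that measured it gave a lower median at 2 h, as given below. The median at 2 h was 0.76 with the floor doubled, which left only 1 gene of the family 2-fold or more higher at each time.

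Oasl1, at chr5:114923143-114937911, encodes a synthetase-like protein of the mouse that makes no 2-5A and is known to repress translation of Irf7. Its probe set 109512_at gave signals of 547.2 in Stat5 siRNA cells and 255.2 in control siRNA cells at 30 min, and 415.9 and 123.9 at 2 h. Without IL-3 it gave 160.8 with control siRNA. Both Stat5 siRNA arrays thus lay above all 3 control siRNA arrays. The siRNA log2 ratio was 1.10 at 30 min, a 2.14-fold difference at rank 20 of 8124 genes, with a spread of 0.19. At 2 h it was 1.75, or 3.36-fold, at rank 3 of 8132 genes, with a spread of 0.24. The 2 h control signal lay just above the floor, and with the floor doubled the ratio became a bound of 0.79.

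Oasl2, at chr5:114896926-114912245, encodes a related protein that in the mouse keeps synthetase activity. Probe set 107525_at gave 279.4 in Stat5 siRNA cells and 53.4 in control siRNA cells at 30 min, and 396.2 and 69.8 at 2 h, with 53.4 in control cells without IL-3. Both Stat5 siRNA arrays reached the floor and all 3 control arrays lay under it. Oasl2 was therefore at least 2.33-fold higher at 30 min (log2 1.22, rank 16) and at least 3.31-fold higher at 2 h (log2 1.72, rank 4). Signals not raised to the floor gave log2 ratios of 2.39 and 2.51, and the doubled floor gave bounds of 0.22 and 0.72.

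Oas2, at chr5:120730333-120749886, encodes an enzyme built of repeated synthetase units. Its probe set 114362_at gave 439.6 in Stat5 siRNA cells and 187.3 in control siRNA cells at 30 min, 533.0 and 210.8 at 2 h, and 202.1 in control cells without IL-3. The 3 control arrays differed by less than the spread, and both Stat5 siRNA arrays lay above them. The log2 ratio was 1.23 at 30 min (2.35-fold, rank 14, spread 0.19) and 1.34 at 2 h (2.53-fold, rank 13, spread 0.24). With the floor doubled, the ratio at 30 min was a bound of 0.87.

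Oas3, at chr5:120753098-120777684, encodes the longest enzyme of the family, again of repeated units. Probe set 135402_at gave 1809 in Stat5 siRNA cells and 1026 in control siRNA cells at 30 min, 1866 and 1402 at 2 h, and 1112 in control cells without IL-3. Both Stat5 siRNA signals were above all 3 control signals, yet no step between neighbours in the order of the 5 conditions passed the spread. The log2 ratio was 0.82 at 30 min (1.76-fold, rank 54) and 0.41 at 2 h (1.33-fold, rank 628), with spreads of 0.36 and 0.37. U74C, which carries this probe set, had the widest spread of the 3 designs.

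Oas1c, at chr5:120800194-120812540, belongs to the Oas1 genes, which are present in several copies in the mouse. Probe set 106955_at gave 208.8 in Stat5 siRNA cells and 181.5 in control siRNA cells at 30 min, a log2 ratio of 0.20 with a spread of 0.19. At 2 h it gave 163.0 in Stat5 siRNA cells and 107.6 in control siRNA cells, so it was at least 1.36-fold higher. Control cells without IL-3 gave 166.2, so the Stat5 siRNA and control arrays overlapped. Its window holds the same 15-base run as those of Oas1a and Oas1g, and at 30 min its siRNA ratio was the smallest among the synthetase genes above 0.

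Oas1b, at chr5:120812635-120824163, is the flavivirus resistance gene of the mouse and carries a truncating mutation in many laboratory strains. RefSeq lists it as a transcribed pseudogene in this assembly. Its probe set 137038_at gave 113.3 in Stat5 siRNA cells and 232.0 in control siRNA cells at 30 min, 80.7 and 118.0 at 2 h, and 43.4 in control cells without IL-3. Only the control array at 30 min reached the floor. Oas1b was at least 1.94-fold lower in Stat5 siRNA cells at 30 min and at least 1.94-fold higher with 30 min of IL-3 than without, and both bounds rest on that 1 array. With signals not raised to the floor its siRNA log2 ratio was -1.03, past 2-fold. Oas1g, at chr5:120876142-120887613, encodes an active synthetase. Its probe set 102717_at gave 4.49 in Stat5 siRNA cells and 17.4 in control siRNA cells at 30 min, 3.18 and 16.1 at 2 h, and 4.91 without IL-3, all under the floor. Probe sets for family members that are not listed, Oas1f (highest signal 48.7) and another assigned to Oas1e and Oas1d together (10.5), were under the floor as well. Copies of Oas1 resemble each other in sequence, and whether their probe sets read more than 1 copy was not tested.

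**Figure D1:**
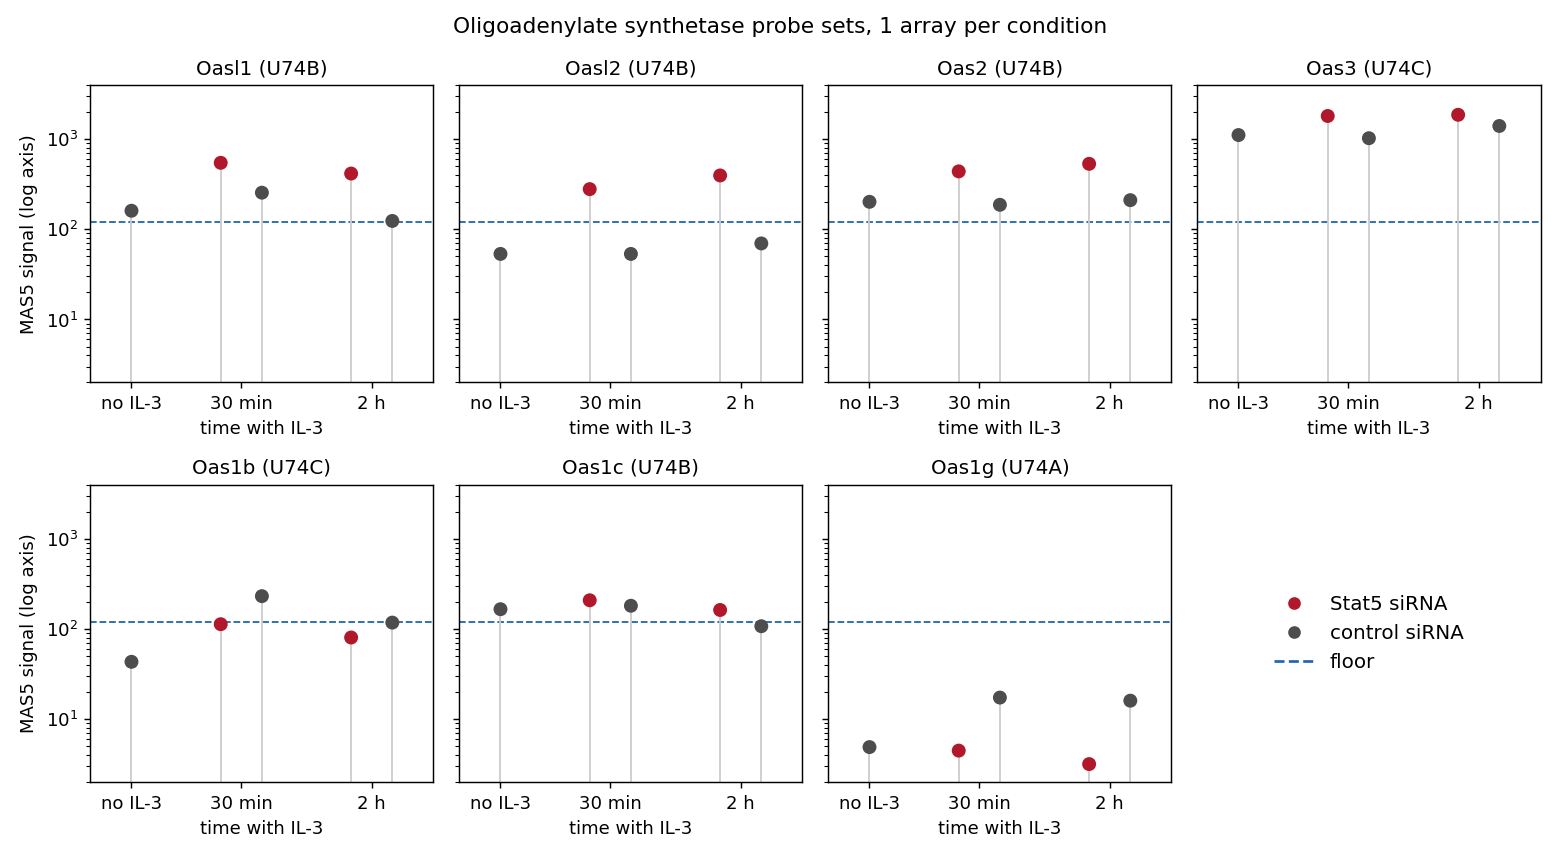
MAS5 signal on a log axis for the 7 probe sets in the 5 conditions, 1 array per point, with Stat5 siRNA (red) to the left of control siRNA (grey) at each IL-3 time and the floor of 119.9 as a dashed line. Oasl1, Oasl2, Oas2 and, by less than 2-fold, Oas3 stand higher in both Stat5 siRNA arrays than in all 3 control arrays. Oas1g stays under the floor throughout.

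At 30 min the log2 ratios of Oas2 and Oasl1, 1.23 and 1.10, differed by less than the spread of 0.19. That of Oasl2, 1.22, is a bound and was 2.39 without the floor, so it cannot be placed beside them. The siRNA log2 ratio at 2 h minus that at 30 min was 0.65 for Oasl1, 0.11 for Oas2 and -0.41 for Oas3. Oasl2 and Oas1c are left out of this difference because it would rest on bounds. For Oasl1 the control signal was 2.06-fold lower at 2 h than at 30 min, while the Stat5 siRNA signal differed by a log2 ratio of -0.40. For Oasl2 the Stat5 siRNA signal was 1.42-fold higher at 2 h than at 30 min. The siRNA comparisons at 30 min and 2 h share no array. Oas2, Oas3 and Oasl1, the 3 synthetase genes with all signals of both comparisons at or above the floor, had ratios above 0 in both. Over all genes 2180 of the 7699 measured in both had ratios above 0 in both, genes with a signal under the floor included. Oas2, Oasl1 and Oasl2 were 3 of the 9 genes that were 2-fold or more higher in both, 0.117% of those measured in both.

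**Figure D2:**
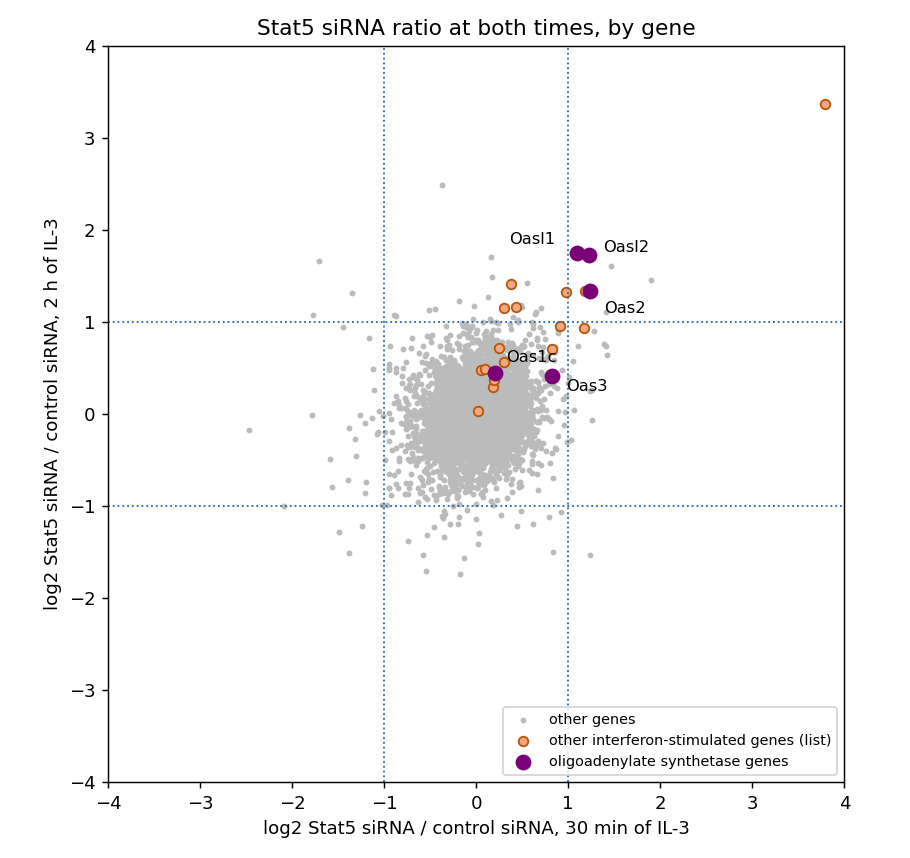
Log2 ratio of Stat5 siRNA over control siRNA after 30 min (x axis) and 2 h (y axis) of IL-3 for the 7699 genes measured at both times, each point a gene, with dotted lines at 2-fold. Oasl1, Oasl2 and Oas2 lie beyond the lines on both axes, Oas3 and Oas1c lie inside them, and the point farthest to the upper right is Ccl5.

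IL-3 gave small differences for most measured synthetase genes in control siRNA cells. For Oas1b at 30 min the bound of 1.94-fold given above does not settle whether 2-fold was passed, and without the floor its log2 ratio was 2.42. On the floored scale 0 of 5 measured genes were 2-fold or more higher or lower at 30 min than without IL-3, beside 0.711% of 8154 genes higher and 0.343% lower, with a median log2 ratio of 0.13. At 2 h 0 of 4 were higher or lower, beside 2.45% of 8294 genes higher and 1.63% lower, with a median of -0.16. Oasl1 was 1.59-fold higher at 30 min (log2 0.67, spread 0.22) and had a log2 ratio of -0.38 at 2 h, with a spread of 0.33. The log2 ratios of Oas2 were -0.11 and 0.06 and those of Oas3 -0.12 and 0.33, all within their spreads. Oas1c had 0.13 at 30 min and was at least 1.39-fold lower at 2 h. Oasl2 was under the floor in all 3 control conditions and has no ratio for IL-3.

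Between 30 min and 2 h of IL-3 in control siRNA cells 1 of 5 genes was 2-fold or more lower, Oasl1 with a log2 ratio of -1.04, and 0 were higher, beside 1.65% of 8233 genes lower and 1.89% higher. With the floor doubled, that ratio was -0.09. The median log2 ratio of the 5 genes was -0.60, with 3 below 0. Among them Oas1b and Oas1c were measured only through the 30 min array and could only come out lower. In Stat5 siRNA cells 0 of 5 were higher or lower, beside 1.64% of 8247 genes higher and 1.19% lower. The median of these 5 was 0.04. The comparisons with IL-3 share the control arrays with the siRNA comparisons. Oasl1 and Oas1b, for which the control array at 30 min of IL-3 gave the highest of the 3 control signals by more than the spread, carry that array in both kinds of ratio.

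**Figure D3:**
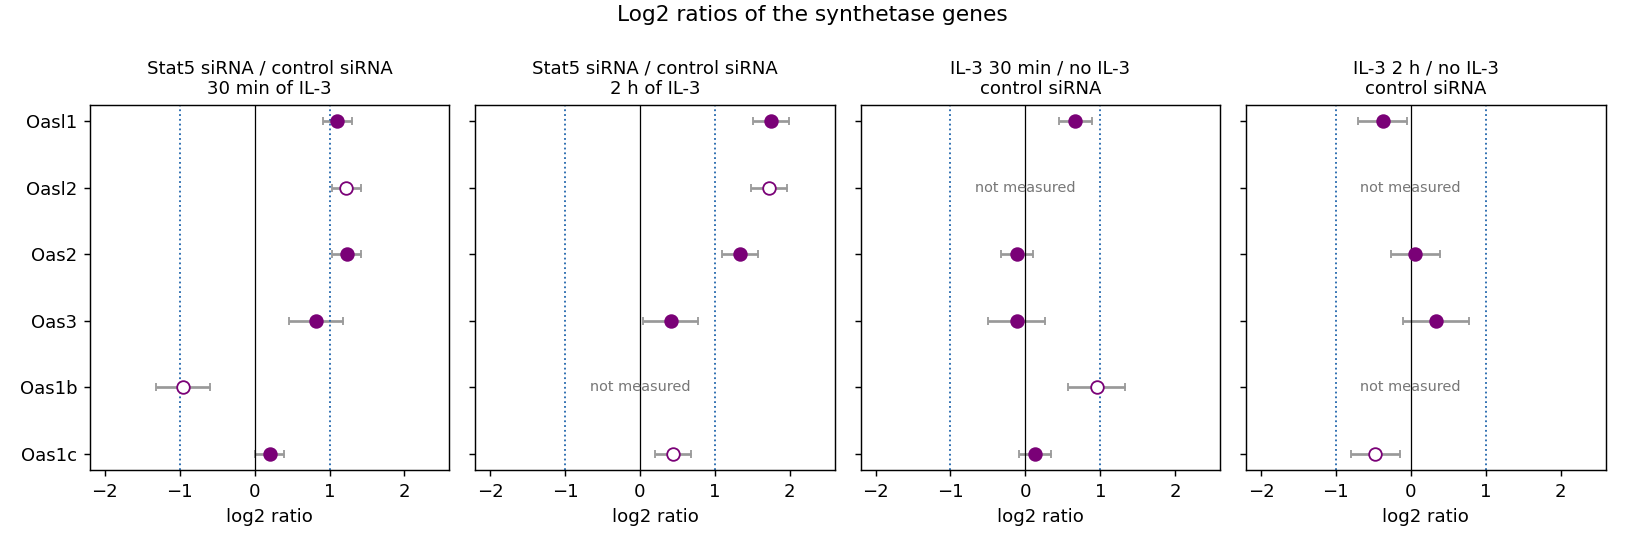
Log2 ratios of the 6 measured synthetase genes in the siRNA comparisons (30 min and 2 h of IL-3) and the IL-3 comparisons in control siRNA cells, with bars of 1 SD from probe set pairs of the same design and dotted lines at 2-fold. Open circles are bounds with 1 signal under the floor; Oasl1, Oasl2 and Oas2 pass 2-fold with Stat5 siRNA at both times and no floored ratio does with IL-3.

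No other gene measured for 2-5A passed 2-fold with Stat5 siRNA. For the turnover and action of 2-5A 3 genes were measured, and 0 were 2-fold or more higher or lower with Stat5 siRNA. The shares of all genes were 0.308% to 0.504% by time and direction. The 3 genes had medians of -0.05 at 30 min and -0.19 at 2 h. Abce1, which encodes an ATP-binding protein of ribosome recycling, had log2 ratios of -0.47 and -0.19. Its 2 h value is the median of probe sets with opposite signs, 0.13 on U74A and -0.50 on U74C. At 30 min only that on U74A was measured. Pde12, a phosphodiesterase that degrades 2-5A, had -0.05 and -0.26. Akap7, which degrades 2-5A in the mouse, had -0.004 and 0.48 on a U74C probe set of a kind that can cross-hybridise.

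Among other effectors and sensors of double-stranded RNA, 8 of 9 listed genes had a probe set and 5 were measured. The medians were 0.04 and 0.21. None was 2-fold or more higher at 30 min and 1 was at 2 h, beside 0.308% and 0.504% of all genes. That gene was Ddx58, which encodes the RNA sensor RIG-I, with signals of 1020 in Stat5 siRNA cells and 627 in control siRNA cells at 30 min, and 1136 and 512 at 2 h. Its log2 ratios were 0.70 and 1.15. Eif2ak2, which encodes the RNA-activated kinase PKR, had 0.04 and 0.05. Adar, an RNA-editing adenosine deaminase, had 0.57 at 30 min and 0.21 at 2 h.

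The interferon genes had low signals on these arrays. The probe sets of Ifnb1, Ifna2, Ifna4, Ifna5, Ifna11 and Ifng had highest signals of 11.3, 14.0, 25.5, 56.7, 6.63 and 1.82, all under the floor in all 5 conditions. With the receptors, 10 of 11 listed ligand and receptor genes had a probe set, and 0 of the 4 measured at 30 min or the 3 measured at 2 h passed 2-fold. Of 15 genes for signalling from interferon receptors to the ISRE, 13 had a probe set and 11 were measured at each time. At 30 min 2 were 2-fold or more higher, Irf7 and Irf1, and Socs1 was lower, with a median of 0.21. At 2 h only Irf7 was higher, with a median of 0.25. The shares of all genes were 0.308% higher and 0.382% lower at 30 min, and 0.504% and 0.43% at 2 h. Irf7, a transcription factor that drives interferon genes, had 446.6 in Stat5 siRNA cells and 41.4 in control siRNA cells at 30 min, and 329.3 and 44.2 at 2 h, so it was at least 3.73-fold and 2.75-fold higher. Its other probe sets, of cross-hybridising kinds, were not used. That on U74C gave log2 ratios of 2.93 and 2.57, and that on U74A a bound of 0.23 at 30 min and no ratio at 2 h. Irf1, another factor of that family, had a log2 ratio of 1.36 at 30 min and was under the floor in both kinds of cells at 2 h. Socs1, a feedback inhibitor of Jak kinases, was lower with a bound of -1.21 at 30 min, and its IL-3 ratio at 30 min was a bound of 1.21 that rests on the same control array. Irf9, the ISRE-binding partner of Stat2, had 0.62 and 0.65 and Stat2 had 0.26 and 0.58.

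Of 33 other interferon-stimulated genes listed, 32 had a probe set, and 16 were measured at 30 min and 18 at 2 h. Of these, 3 were 2-fold or more higher at 30 min and 6 at 2 h, and 0 were lower at either time. The shares of all genes were 0.308% higher and 0.382% lower at 30 min, and 0.504% and 0.43% at 2 h. All 16 and all 18 had ratios above 0, with medians of 0.34 and 0.71, beside 0.0008 and 0.0041 over all genes. The share of all genes above 0 at each single time was not counted. A signal lay under the floor for 6 of the 16 (Ccl5, Gbp3, Irgm1, Isg15, Rsad2 and Sp100) and for 8 of the 18 (these with Igtp and Tap1), and a gene measured only through the Stat5 siRNA array could only come out higher. The 10 genes with both signals at or above the floor at each time were all above 0, with medians of 0.34 and 0.94. This list was chosen with results of these data known. Ccl5, a chemokine, had 1660 in Stat5 siRNA cells and 61.4 in control siRNA cells at 30 min, and 1239 and 44.7 at 2 h, so it was at least 13.8-fold and 10.3-fold higher. Bst2, the membrane protein tetherin, had log2 ratios of 1.18 and 1.34, and Ifi27 had 1.18 and 0.93. B2m, the light chain of MHC class I, had 0.97 and 1.32. At 2 h Gbp7 had 1.41, Parp14 1.15 and Irgm1, an interferon-induced GTPase, a bound of 1.17. The Gbp7 ratio is from its U74A probe set. That on U74B gave 113.9 in Stat5 siRNA cells and 95.2 in control siRNA cells at 2 h, both under the floor. Ifit1, Ifit2, Ifit3, Mx1, Mx2 and Cxcl10, which are also well-known interferon-stimulated genes, did not reach the floor in any condition.

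Genes next to the synthetases on chromosome 5 were taken as 5 protein-coding genes on each side of each group, 20 in all, of which 15 had a probe set. Of these, 11 were measured at 30 min and 10 at 2 h. With Stat5 siRNA 0 of them were 2-fold or more higher or lower, beside shares of all genes from 0.308% to 0.504%. Their log2 ratios lay between -0.40 and 0.50 at 30 min and between -0.48 and 0.53 at 2 h, with medians of 0.0097 and -0.046. Neighbours of Oasl2 and Oasl1 included Git2, with -0.40 and -0.48, and Sppl3, with -0.09 and -0.20. Those of the other group included Hectd4, with 0.50 and 0.53, the highest of the neighbours at both times.

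**Figure D4:**
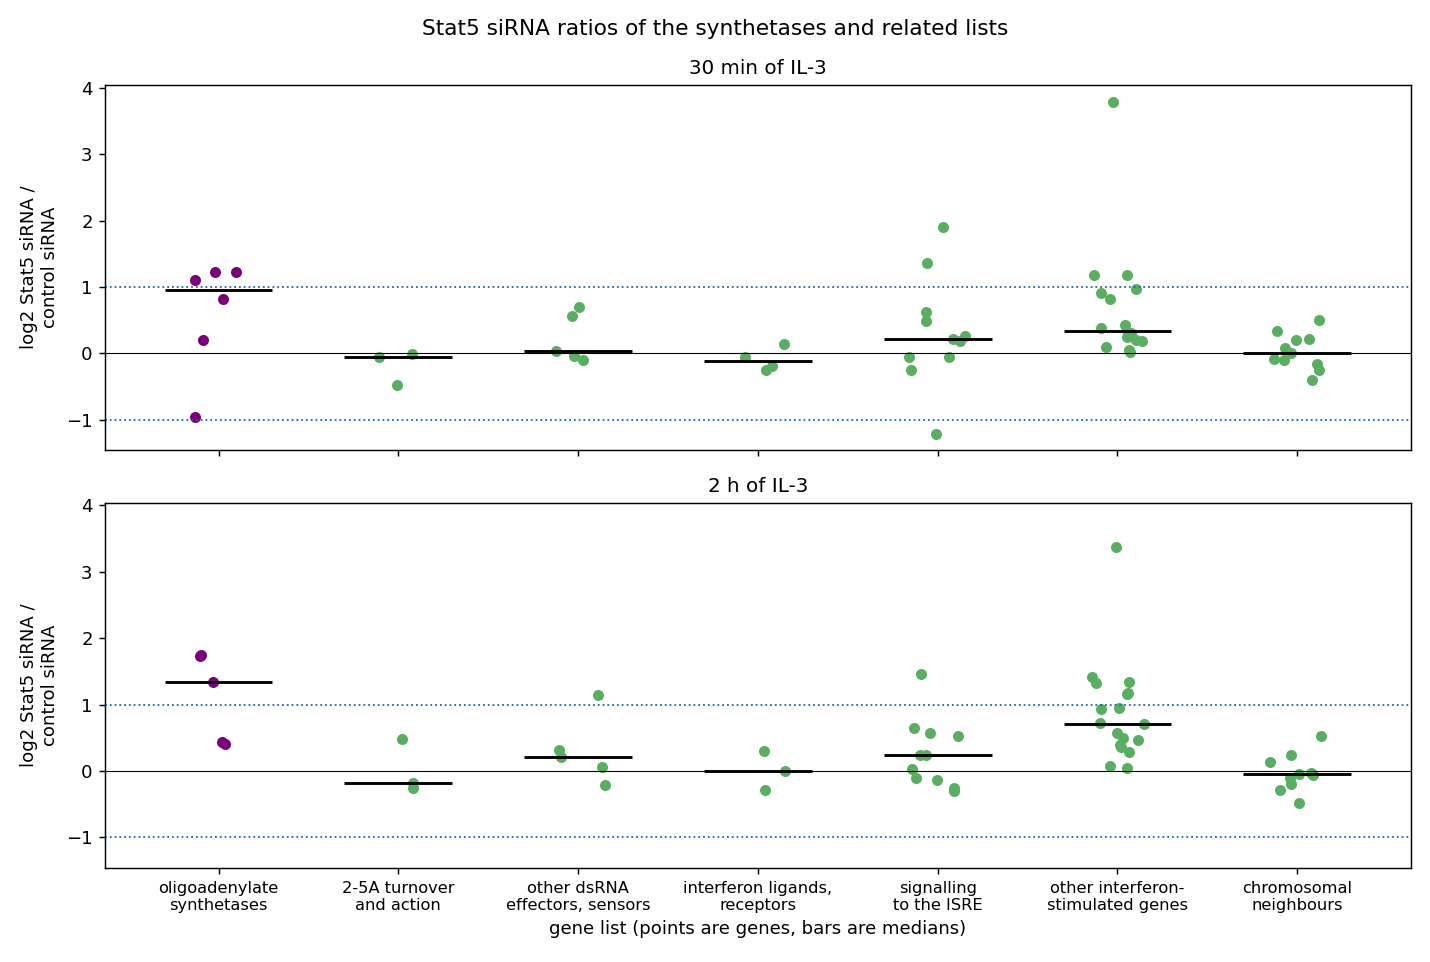
Log2 ratio of Stat5 siRNA over control siRNA by gene list at 30 min (top) and 2 h (bottom) of IL-3, each point a measured gene and each bar a median, with dotted lines at 2-fold. The synthetases have medians of 0.96 and 1.34, the other interferon-stimulated genes 0.34 and 0.71, and the chromosomal neighbours 0.0097 and -0.046.

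The genes most like a synthetase gene over the 5 conditions were found as those with the smallest root mean square difference of floored log2 signals, each centred on its own mean, among 7775 genes. For Oas2 they were Hba-a1, an alpha-globin gene (0.099), Bst2 (0.110) and Oasl2 (0.132). For Oasl2 they were Ddit3, a stress-induced transcription factor (0.117), Oas2 (0.132) and Hba-a1 (0.159). For Oasl1 they were Irf7 (0.349), Hba-a1 (0.358) and Ddit3 (0.376), while Oasl2 came at rank 14 and Oas2 at rank 17. Oasl1 thus had no gene as close as those of Oas2 or Oasl2, and unlike Oas2 and Oasl2 it gave a higher signal with Stat5 siRNA at 30 min than at 2 h. Hba-a1 had 1103 in Stat5 siRNA cells and 470.8 in control siRNA cells at 30 min, and 1172 and 447.4 at 2 h. Oasl2, Ddit3 and the Irf7 probe set used were under the floor on all 3 control arrays, where their floored signals are equal. The likeness of Oasl2 and Ddit3 therefore rests on the Stat5 siRNA arrays. Likeness over 5 arrays describes these arrays only.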

How the data were processed

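Intensity values on a linear scale, 1 per probe set, were deposited for 15 arrays, and the authors made them with MAS5 per the submitters' processing notes. All arrays were set to the same 2% trimmed mean, from deposited means of 150.04 to 150.10. The floor of 119.9 was chosen so that 14553 of 36701 non-control probe sets reach it on their highest array, the number passing filters in the design text. A gene was measured in a comparison where a probe set reached the floor on at least 1 of both arrays. Lower signals were set to the floor before taking log2 ratios, which makes such a ratio a bound ("at least"). Genes with several measured probe sets were given their median, and cross-hybridising kinds were used only for genes with no other. The 2-fold threshold selects by size. The supplied platform annotation gave 1 symbol for 29131 probe sets, several for 724 and none for 6846.

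All 8 listed genes, list genes past 2-fold with Stat5 siRNA and the 3 genes most like each synthetase gene past it were named, and other genes given with values were picked after their values were seen. The synthetase genes and lists were chosen with earlier results of these data known. Ratio and floor steps were tested on simulated data in which only probe sets starting well above the floor were changed. Changes from control signals near or under the floor were not simulated. Precision is limited by the number of arrays, 1 per condition and design, and no test was made. Protein sequences were not compared, and some related genes are not reported here. Python 3.11.15, pandas 2.3.3 and numpy 2.4.6 were used.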

Additional observations from a re-analysis of the deposited data

Results flagged for a closer look

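In 4 synthetase genes the log2 ratio of IL-3 against no IL-3 in control siRNA cells had opposite signs at 30 min and 2 h. The ratio at 2 h minus that at 30 min was -1.04 for Oasl1 (0.67 at 30 min and -0.38 at 2 h), -0.60 for Oas1c (0.13 and -0.47), 0.45 for Oas3 (-0.12 and 0.33) and 0.17 for Oas2 (-0.11 and 0.06). Both ratios of a gene share the array without IL-3. The difference was not tested, since each condition has 1 array per design. For Oas2 and Oas3 both ratios were within the spread of probe set pairs, while for Oasl1 both passed it. Under other settings the 2 h ratio of Oas2 lay between -0.12 and 0.08 and the 30 min ratio of Oas3 between -0.20 and 0.07, so their signs were not fixed.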

How the results depend on the processing

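The 11 alternatives were applied to 192 counts and medians, of which 20 moved, and gave 278 values for single synthetase genes, of which 12 moved by more than the spread. No ratio past 2-fold changed sign. With the floor doubled, 1 gene was 2-fold or more higher with Stat5 siRNA at 30 min and 1 at 2 h. In that setting 0 were lower at 2 h than at 30 min in control siRNA cells. Their median was 0.18 from 2 measured genes, beside -0.60 from 5 with the main floor. The doubled floor gave a median for IL-3 at 2 h of 0.33 from 1 measured gene. The siRNA median at 2 h was 0.76 with the floor doubled, from 4 measured genes. With 6 measured, Oas1b among them, it was 0.97 with the floor halved and 0.88 with a floor per array design. It was 0.90 with median scaling and 0.90 with quantile scaling, also from 6 with Oas1b. With a floor per design 0 genes were lower at 2 h than at 30 min in control siRNA cells. With the floor halved, with median scaling or with signals not raised to the floor, 1 gene, Oas1b, was 2-fold or more lower with Stat5 siRNA at 30 min and 1 higher with IL-3 at 30 min. A threshold of 1.5-fold gave 1 and 2 there, and 3 lower at 2 h than at 30 min in control siRNA cells. No scaling moved the median of all genes by over 0.1.

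The siRNA ratios of Oas2 at 2 h and of Oasl1 at 30 min stayed past 2-fold in all 10 other settings. Of the same 10 settings, 9 kept Oas2 at 30 min, Oasl1 at 2 h and Oasl2 at both times past it, the exception being the doubled floor. For Oasl2 the range was 0.22 to 2.39 at 30 min and 0.72 to 2.51 at 2 h. Limits are the single arrays, the control signals near or under the floor for Oasl1, Oasl2 and Oas1b, the wide spread of U74C for Oas3 and Oas1b, and Stat5 siRNA cells kept off IL-3 not being analysed here. Replicates could not be paired, with 1 sample per group and array design, and a fit pairing the siRNA arrays by IL-3 time was not made.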
